A study of Mus musculus with 72 samples.

Results

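Gabra2 encodes alpha 2, a subunit of GABA-A receptors. It was followed here as 1 gene of 55401 in a table of gene counts and as its 6 annotated transcripts, of 119414 transcripts in a companion table. The gene was taken by its identifier, ENSMUSG00000000560, and the transcripts by the annotation of that gene, so no measured value chose them. Messenger RNA was sequenced in bulk from the hippocampus of male mice. The libraries were labelled C57BL/6NJ (6NJ) or C57BL/6J (6J), a pair of closely related substrains. Within each label, mice received a shock with a cue as fear conditioning, received the cue alone, or were taken straight from the home cage. Tissue of the conditioned and cue mice was collected 30 min after the session. Dorsal hippocampus (DH) and ventral hippocampus (VH) were sequenced apart, so there were 12 groups of 6 libraries, 72 libraries in all. No group was handled without a cue, so the cue cannot be told apart from handling.

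GABA-A receptors are chloride channels built of several subunits, commonly alpha, beta and gamma or delta, and they carry most fast inhibition in the brain. The alpha subunit helps to set where a receptor sits and how it responds to benzodiazepines. In the hippocampus, alpha 2 is known from synapses on pyramidal cells, including those on the axon initial segment, where it is anchored through the scaffold protein gephyrin.

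The strain labels need a word first. C57BL/6J mice are known for low Gabra2 RNA and protein, linked to an intronic deletion next to a splice acceptor of the gene, and for a defective Nnt, which encodes the mitochondrial transhydrogenase. In these files the low values stood in the libraries labelled 6NJ. Nnt, for example, averaged 20.3 ± 1.15 CPM (read counts scaled to a common library total) under the label 6NJ, against 38.0 ± 1.87 CPM under 6J (SD, n = 36 each). Every direction between strains below is therefore a direction between labels.

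Libraries held 30330382 to 56258370 gene counts, of which 3364 to 18382 were Gabra2. Markers set the regions apart: the summed level of 3 dorsal markers averaged 259 and 247 CPM in DH libraries labelled 6NJ and 6J, against 114 and 118 CPM in VH. The 3 ventral markers averaged 20.6 and 21.7 CPM in DH, against 81.2 and 91.7 CPM in VH, although 1 of them, Coch, did not pass between regions (log2 fold change 0.13, edgeR adjusted p = 0.389). The DH cue group labelled 6NJ held a library with a ventral sum of 62.8 CPM, and choroid plexus markers ranged from 22.3 to 8610 CPM across the libraries. Libraries of 6 codes (4 of the 6J cue group, 2 of the 6J home cage group, each present in DH and VH) stood apart by Lcn2, an acute-phase gene, above 2 CPM. Each code is a number and a letter. A group held 2 code numbers of 3 libraries per region, and each number belonged to 1 label and 1 condition, so number and group cannot be told apart.

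The gene lies on chromosome 5 at 70957597 to 71095849, on the minus strand of GRCm38, with 7640 bases of exon sequence. No other annotated gene overlaps it. Gabra2-203 is the protein-coding transcript, with 10 exons over 5852 bases. Gabra2-204 and Gabra2-201 are annotated as targets of nonsense-mediated decay, which removes messages with an early stop codon. In Gabra2-204 exon 5 is shorter by 61 bases than in Gabra2-203, and its last exon ends 1884 bases earlier (2618 bases against 4502). Gabra2-201 skips the fourth exon of 68 bases and lacks the first exon of Gabra2-203. It also holds an exon of 178 bases (70968000 to 70968177) that no other annotated Gabra2 transcript has. Gabra2-202 and Gabra2-205 are annotated as retained introns, and Gabra2-206 is a short processed transcript without a coding frame.

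Gabra2-203, the coding form, and Gabra2-202, which changed the other way between the labels, part at the fifth intron. That intron runs from 71012784 to 71014415, between the fifth exon (71014416 to 71014636, 221 bases) and the sixth (71012701 to 71012783, 83 bases). Gabra2-202 begins inside it and keeps its last 901 bases, 55.2% of its 1632. The sequences below show that border and the exon 5 border that marks Gabra2-204, read from the GENCODE vM21 transcripts of GRCm38 on the gene's own (minus) strand. Each holds 30 bases on either side, and capitals mark the bases after the border.
Gabra2-203, exon 5 joined to exon 6: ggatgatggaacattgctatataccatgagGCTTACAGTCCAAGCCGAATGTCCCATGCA
Gabra2-202, kept intron running into exon 6: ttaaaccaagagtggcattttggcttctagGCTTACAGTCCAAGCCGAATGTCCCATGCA
Gabra2-203, exon 4 joined to exon 5: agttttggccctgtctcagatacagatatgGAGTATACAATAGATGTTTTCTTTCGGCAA
Gabra2-204, exon 4 joined to its shorter exon 5: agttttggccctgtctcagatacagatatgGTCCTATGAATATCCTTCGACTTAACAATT
The first pair shares the start of exon 6 and differs before it. The second pair shares the end of exon 4 and differs after it. These are annotated reference sequences, and the deposited tables hold no reads with which to look for a base change in the mice.

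**Figure D1:**
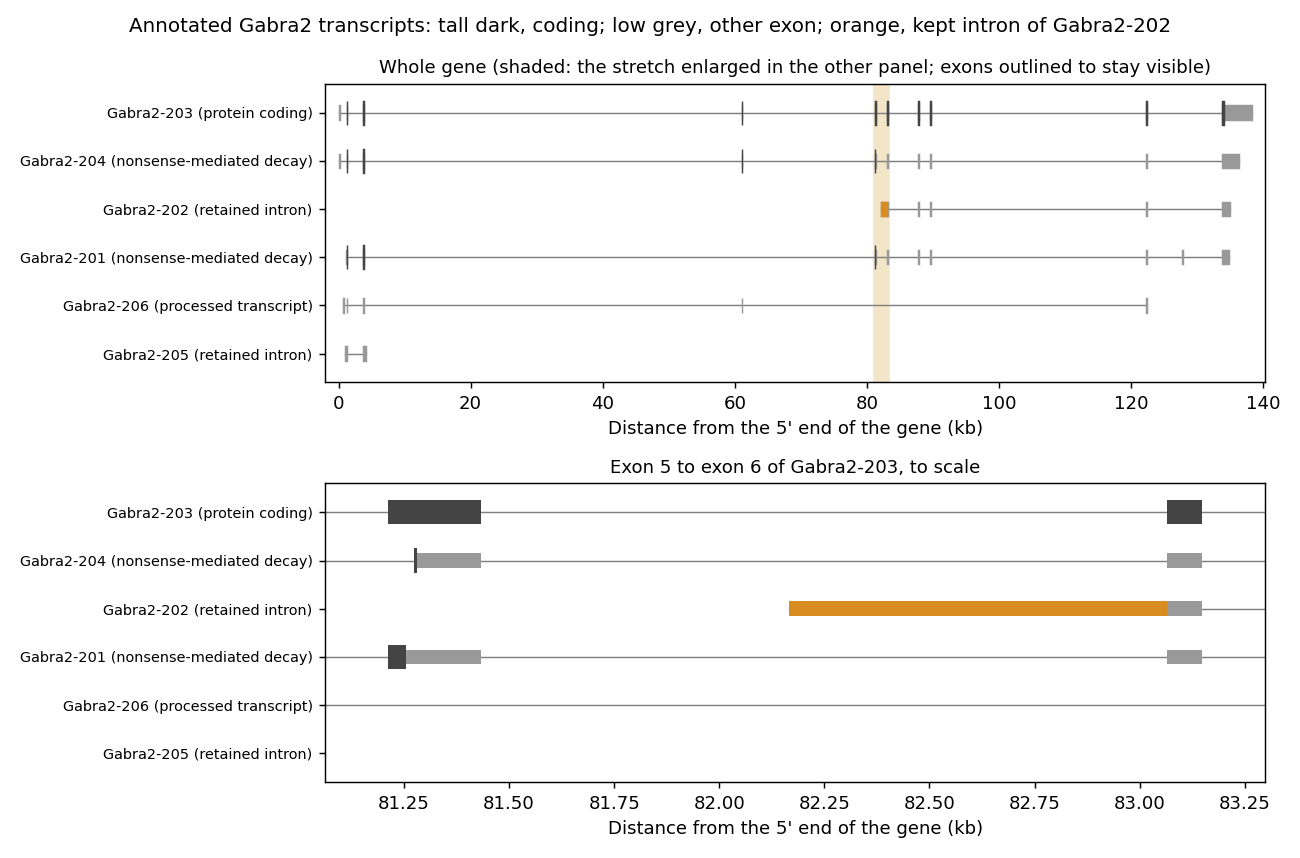
Exons of the 6 annotated Gabra2 transcripts, with distance from the 5′ end of the gene in kb on the horizontal axis: the whole gene above, and the stretch from the fifth to the sixth exon of Gabra2-203 below. The orange box is the 901 bases of intron that Gabra2-202 keeps directly before the sixth exon.

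Gabra2 RNA was much lower under the label 6NJ than under the label 6J, in both regions and in all 3 conditions. Levels are in CPM of a library total scaled by TMM. In DH, shock and cue libraries labelled 6NJ held a lowest value of 108, a median of 115 and a highest value of 123 CPM, against 221, 233 and 273 CPM in those labelled 6J. Cue libraries held 102, 117 and 121 CPM under 6NJ, against 232, 235 and 259 CPM under 6J. Home cage libraries held 91.2, 99.5 and 108 CPM under 6NJ, against 219.7, 234 and 251 CPM under 6J. All 18 libraries labelled 6NJ lay below the lowest of the 18 labelled 6J, with a wide gap between them. In VH, shock and cue libraries held 127, 133 and 159 CPM under 6NJ, against 275, 312 and 317 CPM under 6J. Cue libraries held 116, 140.2 and 149 CPM under 6NJ, against 285, 300.2 and 330.1 CPM under 6J. Home cage libraries held 107, 119 and 133 CPM under 6NJ, against 254, 279 and 319 CPM under 6J. Here too the 18 libraries labelled 6NJ lay below all 18 labelled 6J.

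**Figure D2:**
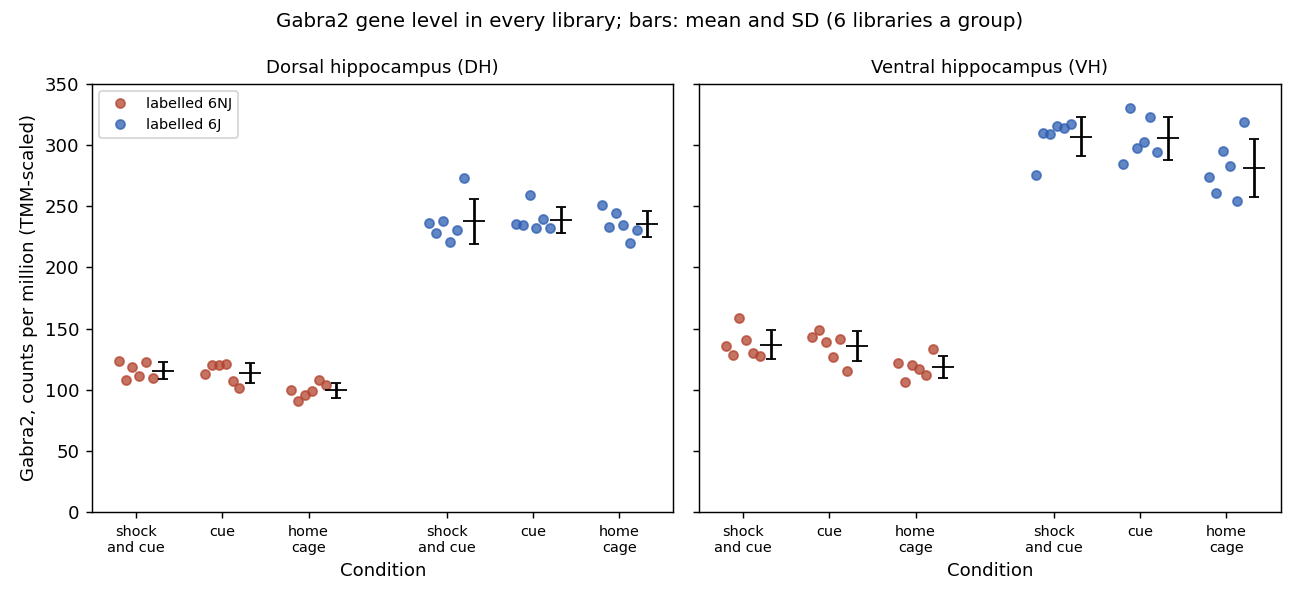
Gabra2 gene level (CPM, linear axis from 0) in every library, by condition, with DH on the left and VH on the right. Points are libraries (red, labelled 6NJ; blue, labelled 6J), and bars give the mean and SD of 6. The red and blue points do not overlap in either region.

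Averaged over the 3 conditions, Gabra2 was at 109.8 ± 9.87 CPM in DH libraries labelled 6NJ and 237 ± 12.9 CPM under 6J (SD, n = 18 each), which is 46.3% of the 6J level. The log2 fold change, 6NJ minus 6J, was -1.11 ± 0.0284 (SE; adjusted p = 8.81e-28 by edgeR's quasi-likelihood test with Benjamini-Hochberg adjustment, the test behind every adjusted p here unless another is named). In VH it was at 130.5 ± 13.6 CPM under 6NJ and 298 ± 21.8 CPM under 6J, 43.8% of the 6J level, with a log2 fold change of -1.19 ± 0.0353 (adjusted p = 4.75e-26). Of all genes tested, 14.7% passed this comparison in DH and 9.92% in VH. Groups of 18 without overlap were much scarcer, at 0.188% of genes in DH and 0.133% in VH. Without the 6 codes high in Lcn2 the changes were -1.13 and -1.21. In bulk tissue, fewer cells of a type and less RNA per cell cannot be told apart. Beside this, pyramidal neuron markers summed to 6325 and 6435 CPM in DH under 6NJ and 6J, and to 5549 and 5621 CPM in VH. Interneuron markers summed to 398 and 391 CPM in DH and to 421 and 408 CPM in VH. Dentate granule cell markers summed to 280.2 CPM under 6NJ and 228 CPM under 6J in DH, where Prox1 and C1ql2 of 3 passed as higher, and to 160.2 and 127 CPM in VH, where only C1ql2 passed. The oligodendrocyte markers Mbp and Mog summed to 4822 CPM under 6NJ and 4102 CPM under 6J in DH, where both passed as higher, and to 2719 and 2283 CPM in VH, where neither passed (adjusted p = 0.162 and 0.0783). Astrocyte markers summed to 448 CPM under 6NJ and 466 CPM under 6J in DH, and to 408 and 426 CPM in VH. Gja1 passed as lower in both regions (-0.12 and -0.11) and Aldh1l1 in DH alone (-0.10), while Aqp4 passed in neither. The part of these markers in the result was not tested.

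Condition by condition, the change in DH was -1.03 ± 0.0491 after shock and cue, -1.07 ± 0.0492 after the cue and -1.24 ± 0.0495 in the home cage. In VH it was -1.16 ± 0.0610, -1.17 ± 0.0610 and -1.24 ± 0.0612. All 6 passed, with adjusted p-values from 6.45e-21 to 2.75e-17. Of all genes, 2.14%, 2.72% and 0.931% passed the same comparisons in DH, and 0.771%, 1.76% and 1.35% in VH.

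Gabra2 rose modestly after the session in libraries labelled 6NJ. In DH it averaged 116 ± 6.82 CPM after shock and cue and 114 ± 7.90 CPM after the cue, against 99.6 ± 5.97 CPM in the home cage (SD, n = 6 each). The lowest shock and cue library (108.2 CPM) stood just above the highest home cage library (108.0 CPM), whereas the cue and home cage libraries overlapped. The log2 fold changes were 0.22 ± 0.0490 (adjusted p = 0.00663) for shock and cue and 0.19 ± 0.0491 (adjusted p = 0.0229) for the cue, where 3.57% and 2.36% of all genes passed. In VH under 6NJ the means were 137 ± 11.8 CPM after shock and cue and 136 ± 12.3 CPM after the cue, against 119 ± 9.16 CPM in the home cage. The changes were 0.20 ± 0.0607 (adjusted p = 0.0348) and 0.19 ± 0.0607 (adjusted p = 0.0316), where 8.65% and 12.9% of all genes passed. The session groups of a region share their home cage libraries, so these are not separate pieces of evidence. The cue result in DH was not past the threshold without library 40A (0.18, adjusted p = 0.0603). With only the groups compared in the fit, the cue result in DH (adjusted p = 0.0642) and both results in VH (adjusted p = 0.0693 for shock and cue and 0.0788 for the cue) missed it too.

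Summed marker levels were not tested between conditions, and their group ranges overlapped in each case given here. In DH under 6NJ, markers of CA1, a pyramidal field of the hippocampus, summed to 303 ± 57.1 CPM after shock and cue, 326 ± 45.2 CPM after the cue and 375 ± 37.9 CPM in the home cage, and pyramidal neuron markers to 6274 ± 497, 6113 ± 472 and 6588 ± 282 CPM (SD, n = 6 each). Choroid plexus markers varied more within a group than between them, at 1303 ± 1490, 1047 ± 1455 and 845 ± 1288 CPM. In VH under 6NJ, interneuron markers summed to 441 ± 25.0, 423 ± 26.5 and 398 ± 32.4 CPM and dentate markers to 141 ± 11.1, 164 ± 33.9 and 176 ± 40.6 CPM. In the same order, ventral markers in DH under 6NJ summed to 19.6 ± 6.41, 27.2 ± 18.7 and 14.96 ± 3.92 CPM. Dorsal markers there summed to 229.8 ± 35.6, 252.9 ± 53.8 and 294 ± 34.3 CPM. In VH under 6NJ, ventral markers summed to 94.5 ± 24.7, 79.5 ± 22.04 and 69.8 ± 24.4 CPM. Dorsal markers there summed to 108 ± 28.5, 119.99 ± 27.1 and 113 ± 30.2 CPM. In DH under 6J, where Gabra2 did not pass, ventral markers summed to 26.1 ± 12.6, 23.4 ± 9.78 and 15.7 ± 4.79 CPM. The part of these markers in the rise was not tested.

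Shock added no change that passed, in comparisons that 0% of all genes passed under either label and in either region. Between shock and cue and the cue alone, the log2 difference under 6NJ was 0.026 ± 0.0489 in DH (adjusted p = 0.936) and, for VH, 0.0045 ± 0.0605 (adjusted p = 0.995). Under 6J it was -0.0088 ± 0.0484 in DH (adjusted p = 0.98) and, for VH, -0.0016 ± 0.0600 (adjusted p = 0.996).

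In libraries labelled 6J, Gabra2 did not pass in any comparison with the home cage. In DH it averaged 238 ± 18.4 CPM after shock and cue and 239 ± 10.3 CPM after the cue, against 235 ± 10.9 CPM in the home cage, with changes of 0.013 ± 0.0485 (adjusted p = 0.935) and 0.022 ± 0.0485 (adjusted p = 0.838), where 1.76% and 5.89% of all genes passed. In VH it averaged 307 ± 15.7 CPM and 305 ± 17.5 CPM, against 281 ± 23.7 CPM, with changes of 0.12 ± 0.0600 each (adjusted p = 0.253 for shock and cue and 0.16 for the cue), where 3.11% and 12.8% of all genes passed. The difference between the labels in these responses did not pass either, in tests that 0% of all genes passed in each region. This does not show the responses to be alike. The difference was 0.21 ± 0.0689 for shock and cue in DH (adjusted p = 0.967, unadjusted p = 0.0048 by edgeR). For the cue in DH it was 0.17 ± 0.0690 (adjusted p = 1, unadjusted p = 0.017 by edgeR). In VH it was 0.075 ± 0.0853 (adjusted p = 0.998) and 0.069 ± 0.0853 (adjusted p = 1).

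Ordered by mean level, the 12 groups run from DH home cage labelled 6NJ (99.6 CPM) to VH shock and cue labelled 6J (307 CPM), with all 6 groups labelled 6NJ below all 6 labelled 6J. Each group was set against the next lower one by a two-sided exact permutation test of 6 against 6, whose smallest possible p is 0.00216, adjusted over the 11 steps. The values tested also set the order and so chose the pairs. These p-values therefore describe the steps and add no evidence to the comparisons above. The step between labels, DH home cage labelled 6J over VH shock and cue labelled 6NJ, had p = 0.00216 (adjusted p = 0.0238, exact permutation test), and the ranges did not overlap. The step to VH home cage over DH cue within 6J had p = 0.00433 (adjusted p = 0.0238, exact permutation test). The step to DH cue over DH home cage within 6NJ had p = 0.0108 (adjusted p = 0.0397, exact permutation test). The other 8 neighbours did not differ beyond their spread after adjustment. The nearest of these was VH cue over VH home cage within 6NJ (adjusted p = 0.0655, exact permutation test).

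Gabra2 was lower in the dorsal than in the ventral hippocampus under both labels. Libraries labelled 6NJ held 91.2 to 123 CPM in DH with a median of 109, against 107 to 159 CPM in VH with a median of 129. Libraries labelled 6J held 219.7 to 273 CPM in DH with a median of 234, against 254 to 330.1 CPM in VH with a median of 300.2. The ranges overlapped between the regions under each label. The log2 fold change, DH minus VH, was -0.29 ± 0.0228 over all groups (adjusted p = 3.75e-18), -0.25 ± 0.0325 under 6NJ (adjusted p = 9.6e-10) and -0.33 ± 0.0321 under 6J (adjusted p = 7.71e-14). Regional differences were common: 63.6% of all genes passed over all groups, 50.4% under 6NJ and 53.7% under 6J. The size of the regional difference did not pass between the labels (0.077 ± 0.0456, adjusted p = 0.997), a test that 0.00494% of all genes passed.

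The DH and VH libraries of a code share their condition, so their relation in Gabra2 level includes the differences between conditions. Under 6NJ, over 18 codes, Pearson's r was 0.703 (permutation p = 0.00126, adjusted p = 0.00756) and Spearman's rho 0.62 (permutation p = 0.00649, adjusted p = 0.0389). It was 0.585 without the 2 codes farthest from the median in DH, and 0.429 after condition means were removed, which was not tested. Under 6J, r was 0.145 (permutation p = 0.57, adjusted p = 0.855) and rho -0.0093 (permutation p = 0.974), and r was -0.019 without the 2 farthest codes. The labels do not say that a code is a mouse. Between the 2 code numbers of a group, mean levels differed by 1.01 to 1.12 times.

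The transcripts were measured by estimated counts, which kallisto divides among transcripts that share sequence. Summed over the 6 transcripts they came to 98.6 to 100.2% of the gene count in every library. How well a transcript can be told apart depends on its own sequence. Of all stretches as long as a read (75 bases), 1992 of 5743 in Gabra2-203 were found in no other Gabra2 transcript. Gabra2-202 had 899 of 2554, all of which hold kept intron bases. Gabra2-204 had 72 of 3758 (1.92%), those around its shortened exon, so its estimate leans on few reads. None of these stretches occurred in a transcript of another gene.

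The coding transcript fell as the gene did. Gabra2-203 held 55.0, 70.1 and 90.5 CPM (lowest, median and highest of 18) in DH libraries labelled 6NJ, against 148, 163 and 193 CPM in those labelled 6J. In VH it held 65.0, 83.5 and 97.2 CPM under 6NJ, against 183, 214 and 244 CPM under 6J. No library labelled 6NJ reached the lowest of those labelled 6J in either region. Its log2 fold change was -1.22 ± 0.0369 in DH (adjusted p = 2.64e-22) and, for VH, -1.35 ± 0.0456 (adjusted p = 9.33e-21), that is 43.2% and 39.3% of the 6J level. Of all transcripts tested, 2.9% passed in DH and 2.18% in VH.

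Gabra2-204, the decay target with the shorter exon 5 and the shorter 3′ end, was also lower. It averaged 23.3 ± 3.55 CPM in DH libraries labelled 6NJ and 50.8 ± 5.65 CPM under 6J (SD, n = 18 each), a log2 change of -1.12 ± 0.0666 (adjusted p = 3.75e-14). In VH it averaged 28.6 ± 4.33 CPM under 6NJ and 64.7 ± 10.7 CPM under 6J (-1.17 ± 0.0610, adjusted p = 1.27e-15).

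The intron-keeping transcript went the other way. Gabra2-202 held 3.98, 6.34 and 10.01 CPM (lowest, median and highest) in DH libraries labelled 6NJ, against 0.131, 0.516 and 1.33 CPM in those labelled 6J. In VH it held 3.32, 8.07 and 12.6 CPM under 6NJ, against 0.208, 0.598 and 1.35 CPM under 6J. All 18 libraries labelled 6NJ stood above the highest of those labelled 6J, in each region. Groups of 18 without overlap were found for 0.0885% of all transcripts in DH and 0.0735% in VH. The means were 6.44 ± 1.58 and 0.615 ± 0.340 CPM in DH, a ratio of 10.5, and 7.93 ± 2.43 and 0.610 ± 0.285 CPM in VH, a ratio of 13.0. The log2 fold change was 3.44 ± 0.196 in DH (adjusted p = 1.38e-14) and, for VH, 3.70 ± 0.210 (adjusted p = 1.27e-14). Without the codes high in Lcn2 it was 3.35 and 4.07. These levels rest on estimated counts of 105 to 505 per library under 6NJ and 4.77 to 50.3 under 6J, so the 6J values carry a wide counting error.

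**Figure D3:**
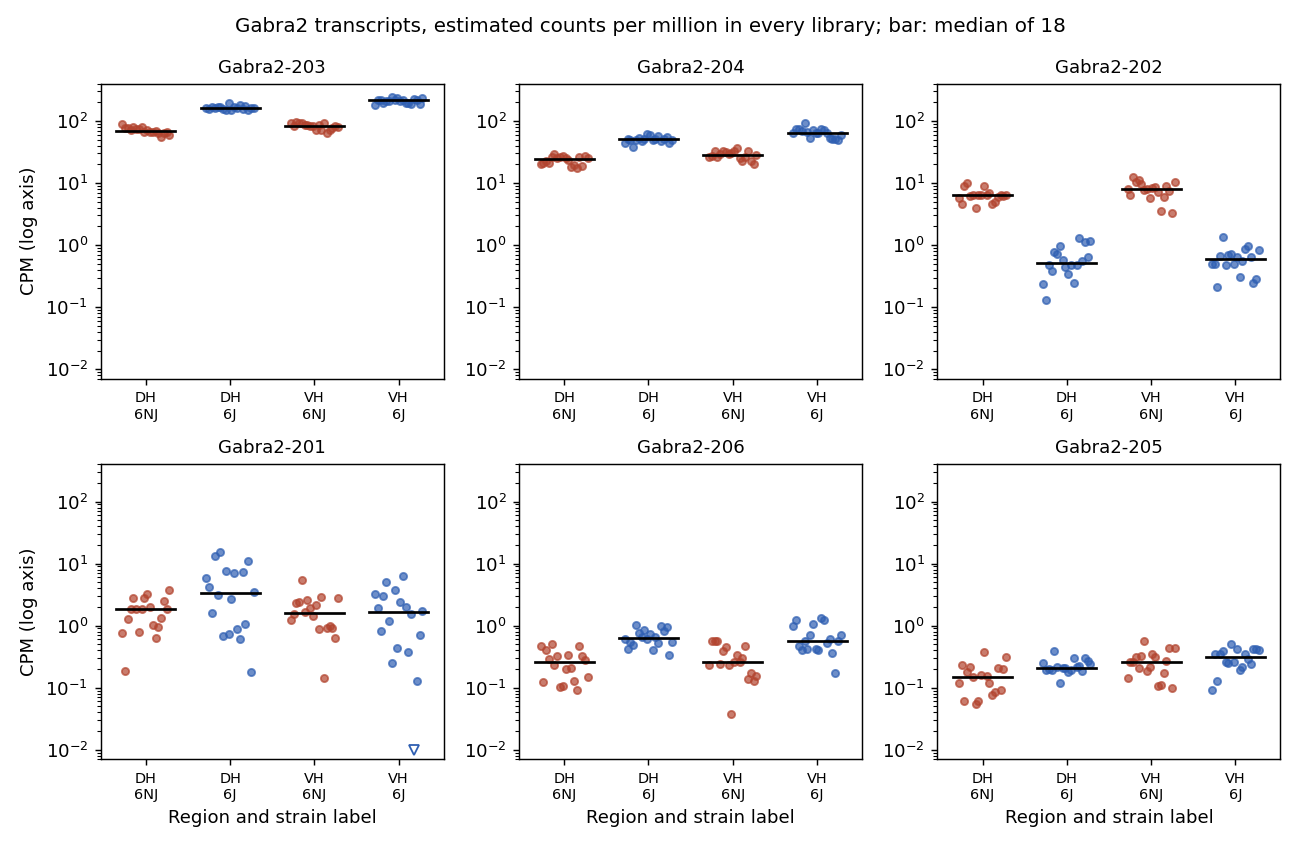
Level of each Gabra2 transcript (CPM of estimated counts, log axis) in every library by region and strain label (red, 6NJ; blue, 6J), with the median of 18 as a bar. Gabra2-203 and Gabra2-204 are lower and Gabra2-202 higher under 6NJ, and the open triangle is 1 library at 0.

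Condition by condition, Gabra2-202 was higher under 6NJ in DH by 3.68 ± 0.344 after shock and cue, 3.92 ± 0.348 after the cue and 2.72 ± 0.328 in the home cage (log2, adjusted p from 3.27e-09 to 3.59e-06). In VH the values were 3.96 ± 0.369, 3.79 ± 0.364 and 3.36 ± 0.358 (adjusted p from 1.27e-08 to 2.4e-07). Of all transcripts, 0.341%, 0.304% and 0.182% passed these comparisons in DH, and 0.169%, 0.226% and 0.246% in VH. The transcript itself did not pass between any session group and its home cage group. Under 6NJ the changes from the home cage in DH were 0.080 after shock and cue (adjusted p = 0.977) and 0.37 after the cue (adjusted p = 0.897), and in VH 0.30 (adjusted p = 0.793) and 0.47 (adjusted p = 0.507). Under 6J the DH changes were larger and downward, at -0.88 ± 0.327 (adjusted p = 0.334) and -0.84 ± 0.326 (adjusted p = 0.263). Their unadjusted p by edgeR was 0.0112 and 0.0154, on low estimated counts. The VH changes under 6J were -0.29 (adjusted p = 0.879) and 0.046 (adjusted p = 0.971). Between the regions it was not past the threshold (DH minus VH, -0.17 ± 0.134, adjusted p = 0.42), and the sign turned without the codes high in Lcn2 (0.061).

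As a share of all Gabra2 estimated counts, Gabra2-202 took 3.81 to 9.52% in DH libraries labelled 6NJ, against 0.0606 to 0.620% in those labelled 6J. In VH it took 2.97 to 8.65% under 6NJ, against 0.0708 to 0.435% under 6J. In each of the 6 comparisons of 6 against 6 libraries the difference was 5.38 to 6.96 percentage points, with p = 0.00216, the smallest an exact permutation test can give (two-sided, adjusted p = 0.0111 over 36 comparisons of shares). Per base of length, Gabra2-202 stayed minor: it held 2.60 CPM per kb in DH under 6NJ beside 12.4 CPM per kb for Gabra2-203, and 3.20 beside 14.6 in VH. Under 6J the levels were 0.248 beside 28.8 CPM per kb in DH and 0.246 beside 37.1 in VH. Under 6NJ, relative to 6J, Gabra2-202 rose by 5.83 CPM in DH and 7.32 CPM in VH, while Gabra2-203 fell by 93.3 CPM in DH and fell by 128.4 CPM in VH.

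The share of Gabra2-203 was lower under 6NJ in 3 of the 6 comparisons after adjustment. The difference was -5.43 percentage points after the cue in DH (adjusted p = 0.026, exact permutation test), -7.13 after shock and cue in VH (adjusted p = 0.0111, exact permutation test) and -6.73 after the cue in VH (adjusted p = 0.0195, exact permutation test). Without the codes high in Lcn2 the cue differences were -4.41 in DH and -7.98 in VH (adjusted p = 0.271 and 0.161, exact permutation tests). Too few 6J cue libraries were then left for either to pass, so these p-values do not bear on the cue results. The other differences were -3.62 and -6.81 in DH and -8.50 in VH, with adjusted p from 0.0519 to 0.17 (exact permutation tests), and the VH home cage difference passed with shares per effective length (-12.3, adjusted p = 0.0468, exact permutation test). Across the libraries of a label and region, no relation between the levels of Gabra2-202 and Gabra2-203 passed: r was 0.0398 and 0.186 under 6NJ in DH and VH, and -0.192 and -0.034 under 6J (n = 18 each, adjusted permutation p at least 0.855, 6 relations in the family).

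The remaining transcripts were scarce. Gabra2-206, the short processed transcript, averaged 0.264 CPM in DH under 6NJ and 0.664 CPM under 6J (-1.32 ± 0.222, adjusted p = 0.000341), with 0.305 and 0.673 CPM for VH (-1.12 ± 0.258, adjusted p = 0.0126). Gabra2-205, the retained intron near the 5′ end, averaged 0.158 and 0.227 CPM in DH (-0.55 ± 0.228, adjusted p = 0.235), with 0.266 and 0.309 CPM for VH (-0.21 ± 0.226, adjusted p = 0.816). Its share of the gene was higher under 6NJ in VH, by 0.122 percentage points after shock and cue (adjusted p = 0.0468, exact permutation test) and 0.105 after the cue (adjusted p = 0.0497, exact permutation test). Neither passed with shares per effective length (adjusted p = 0.0669 each, exact permutation tests). Without the codes high in Lcn2 the cue result had an adjusted p of 0.161 (exact permutation test), with too few 6J cue libraries left for it to pass. Gabra2-201, the decay target without the fourth exon and with an exon of its own, was scattered. It ranged from 0.188 to 3.73 CPM in DH under 6NJ, against 0.179 to 15.3 CPM under 6J. In VH it ranged from 0.142 to 5.48 CPM under 6NJ, against 6.40 CPM at most under 6J, where 1 library was listed at 0. It did not pass between the labels in DH (-1.44 ± 0.433, adjusted p = 0.0662), where DESeq2 gave an adjusted p of 0.0122, or in VH (0.069 ± 0.393, adjusted p = 0.979).

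Between the regions, Gabra2-203 (-0.30 ± 0.0292, adjusted p = 2.61e-13), Gabra2-204 (-0.31 ± 0.0456, adjusted p = 5.98e-08) and Gabra2-205 (-0.63 ± 0.155, adjusted p = 0.00101) were lower in DH over all groups, where 26.9% of all transcripts passed. Under 6NJ alone, where 16% passed, the difference of Gabra2-203 was -0.23 ± 0.0414 (adjusted p = 1.07e-05). Gabra2-201 was higher in DH under 6J (1.48 ± 0.421, adjusted p = 0.00688), where 19.6% of transcripts passed. After shock and cue, Gabra2-203 rose in DH under 6NJ (0.30 ± 0.0632, adjusted p = 0.0148), where 0.727% of transcripts passed. With only these groups in the fit the adjusted p was 0.139. After the cue its change was 0.20 (adjusted p = 0.212). Gabra2-204 rose in VH under 6J after the cue (0.41 ± 0.104, adjusted p = 0.0306), where 2.39% of transcripts passed, and missed the threshold without the codes high in Lcn2 (adjusted p = 0.7).

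The other receptor subunits listed differed little between the labels. Of 17 genes listed, 13 were tested, and Gabra6, Gabrp, Gabrr1 and Gabrr3 were too low. In DH, 0 were higher and 1 lower under 6NJ, by edgeR and by DESeq2, with 3 at an unadjusted p under 0.05 in either direction. Gabrb1, a beta subunit encoded in the same cluster as Gabra2, stood at 218 ± 13.3 CPM under 6NJ and 235 ± 17.7 CPM under 6J (log2 fold change -0.10 ± 0.0306, adjusted p = 0.0183). In VH, 1 was higher and 2 lower. Gabrd, the delta subunit of receptors outside synapses, was at 18.8 ± 3.25 and 16.2 ± 1.86 CPM (0.21 ± 0.0543, adjusted p = 0.0107). Gabrg1, a gamma subunit, was at 24.0 ± 2.65 and 27.2 ± 2.75 CPM (-0.18 ± 0.0458, adjusted p = 0.00778), and Gabra3, the alpha 3 subunit, at 82.2 ± 8.35 and 91.5 ± 9.63 CPM (-0.16 ± 0.0480, adjusted p = 0.0328). The median log2 fold change of the 13 was 0.046 in DH, against -0.0053 over all genes, and 0.014 in VH, against -0.001. The share that passed, 1 of 13 in DH and 3 of 13 in VH, is read against the 14.7% and 9.92% of all genes given above. In the home cage alone, 0 of 13 passed in either region by edgeR and by DESeq2, with 1 in DH and 2 in VH at an unadjusted p under 0.05.

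**Figure D4:**
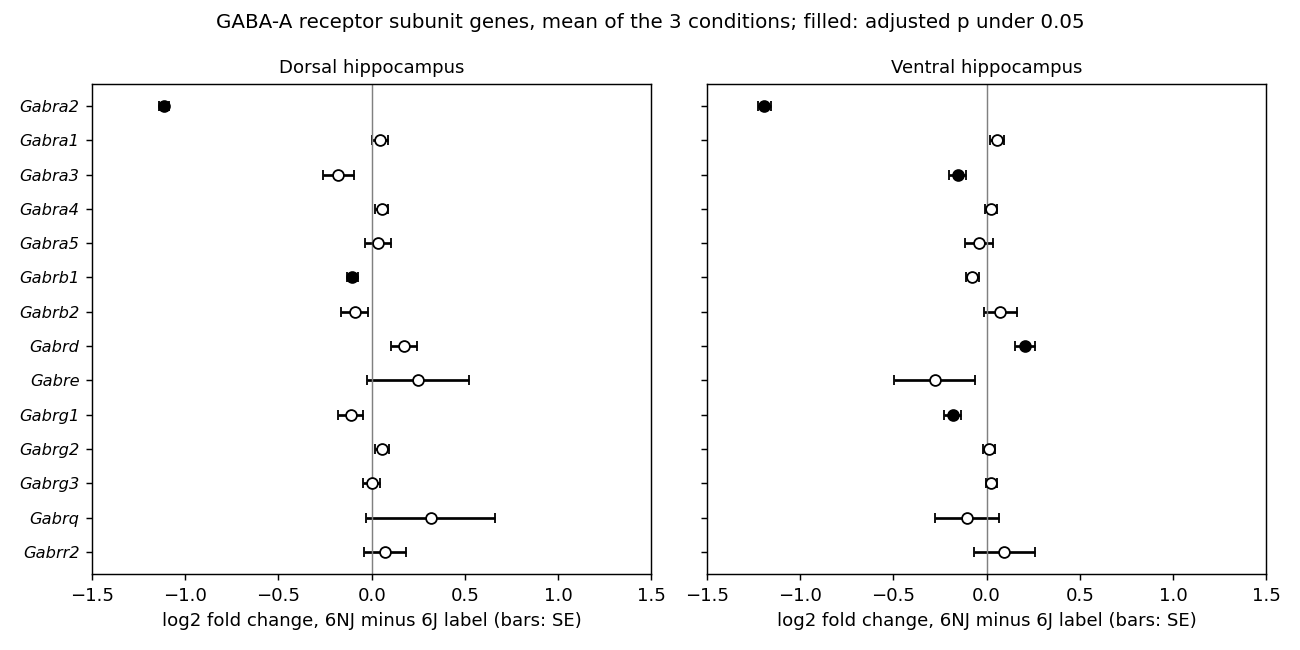
Log2 fold change of Gabra2 and the 13 other GABA-A receptor subunit genes listed and tested, 6NJ minus 6J, mean of the 3 conditions, with its SE, in DH and VH. Gabra2 sits at -1.11 in DH and -1.19 in VH, and filled points passed the threshold of 0.05.

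Levels between genes can be set side by side per kb of exon. Gabra2 held rank 6 of 18 subunit genes in DH under 6NJ, at 14.4 ± 1.29 CPM per kb, and rank 4 under 6J, at 31.1 ± 1.69 CPM per kb (SD, n = 18 each). In VH it held rank 6 under 6NJ, at 17.1 ± 1.78 CPM per kb, and rank 2 under 6J, at 39.0 ± 2.86 CPM per kb. Gabra5, the alpha 5 subunit, held rank 1 in all 4 sets, at 60.1 to 71.4 CPM per kb. Of the summed level of these 18 genes, Gabra2 made up 6.29% under 6NJ and 12.8% under 6J in DH, and 7.85% and 16.1% in VH. The alpha subunit nearest above it under 6NJ was Gabra4 in DH (17.99 CPM per kb) and Gabra3 in VH (20.9 CPM per kb), both of which were lower than Gabra2 under 6J (17.3 and 23.3 CPM per kb).

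Among genes that anchor and move GABA-A receptors, 24 names matched 22 genes. In DH, 5 were higher and 2 lower under 6NJ, where 14.7% of all genes passed. The motor adaptor Trak2 rose most (0.20 ± 0.0327, adjusted p = 3.86e-05), at 318 ± 26.0 CPM under 6NJ and 277 ± 15.8 CPM under 6J. Gphn, which encodes gephyrin, changed by 0.07 ± 0.0224 (adjusted p = 0.0247). The synapse protein gene Insyn1 (0.10), Gabarapl1 (0.08) and the vesicle fusion gene Nsf (0.11) were higher, and Shisa7 (-0.13), whose product binds the receptor, and Dmd (-0.11), which encodes dystrophin, were lower. Nsf did not pass with RLE size factors, nor Gabarapl1 and Shisa7 with no low-count filter, and DESeq2 called Kif5a besides these 7. In VH, where 9.92% of all genes passed, 2 were higher and 0 lower, Trak2 (0.13 ± 0.0317, adjusted p = 0.00771) and the kinesin gene Kif5a (0.14 ± 0.0426, adjusted p = 0.0284). DESeq2 called 3 higher and 0 lower in VH. Of 12 genes for GABA synthesis, transport, breakdown, GABA-B receptors and chloride transport, 0 were higher and 2 lower in each region by edgeR, and likewise by DESeq2, beside the same 14.7% and 9.92% of all genes. These were Slc6a11, a GABA transporter of astrocytes (-0.12 in DH and -0.10 in VH), and Aldh5a1, for an enzyme of the GABA breakdown pathway (-0.07 and -0.06). Of the astrocyte markers given above, Gja1 was lower in both regions, Aldh1l1 passed only in DH and Aqp4 in neither. Their part in the change of Slc6a11 was not tested. The enzymes Gad1 and Gad2 did not pass in either region.

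Around Gabra2, the change was not shared by its neighbours at any like size. Of 61 annotated genes within 2 Mb, 19 were tested in DH and 18 in VH, and their counts are to be read against the 14.7% and 9.92% of all genes that passed. In DH, 1 was lower under 6NJ, Gabrb1, whose 5′ end lies at 562.3 kb from that of Gabra2, toward higher coordinates. In VH, 2 were lower, Gabrg1 at -253.2 kb (toward lower coordinates) and Commd8 at 1072.3 kb (-0.13 ± 0.0266, adjusted p = 0.00158). Gabra4, which with Gabrb1, Gabrg1 and Gabra2 forms a subunit cluster, did not pass (0.053 ± 0.0356 and adjusted p = 0.342 in DH, 0.024 ± 0.0321 and adjusted p = 0.701 in VH).

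**Figure D5:**
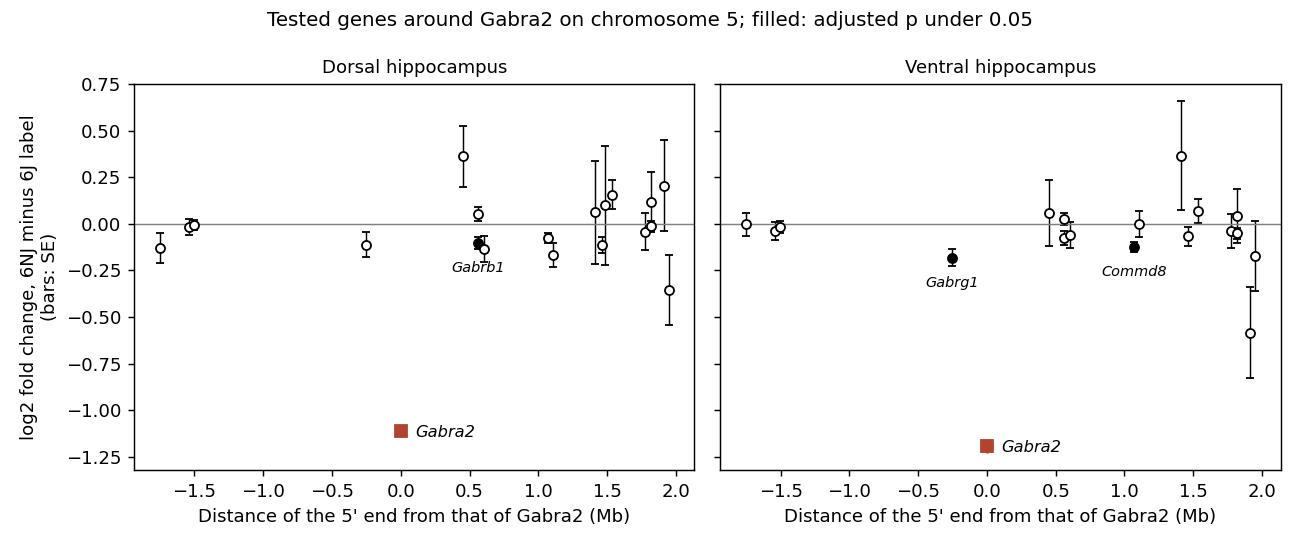
Log2 fold change, 6NJ minus 6J, mean of conditions, with its SE, for the tested genes around Gabra2, against the distance of each 5′ end from that of Gabra2 in Mb. Gabra2 (red square) lies at -1.11 in DH and -1.19 in VH, and every gene that passed (filled) lies between -0.18 and -0.10.

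Across the 72 libraries, the log2 CPM of Gabra2 was compared with that of 20254 other genes, as a description. The libraries share labels, codes and regions, and 37 genes had a Pearson r beyond 0.8 in either direction. The highest were Wdfy1 (0.955, 21.0 ± 1.36 CPM under 6NJ and 49.9 ± 2.35 CPM under 6J), Tmem181b-ps (0.942, 30.8 and 61.4 CPM), both gene models of Nnt (0.927 and 0.926) and E230020A03Rik (0.879). The lowest were ENSMUSG00000118458 (-0.957), mt-Tg (-0.938), Khdrbs1 (-0.908, 93.6 and 79.4 CPM), mt-Nd3 (-0.907) and Snrpc (-0.904, 14.3 and 11.1 CPM). These lie on several chromosomes and the mitochondrial genome. After the mean of each of the 12 groups was taken out, the closest were Dgkb (0.692), Pcdh19 (0.650), Ctnnb1 (0.639), Uhmk1 (0.634) and Pak3 (0.629).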

How the data were processed

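Stranded mRNA libraries were sequenced as 75 bp single-end reads, per the labels' protocols. The authors deposited whole-number read counts per gene and estimated counts per transcript. HISAT2, featureCounts, kallisto, DESeq2, FastQC and GRCm38 are named in the submitters' processing notes. No versions and no strand setting for the counting are given in the sources used here. kallisto divides reads among transcripts with shared sequence, so transcript values carry that uncertainty.

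Groups came from the labels, which do not say that the libraries of a group are separate mice. The p-values thus cover just the variation among these libraries, which may be technical. Counts, and estimated counts rounded to whole numbers, were tested in R 4.3.3 with edgeR 4.0.16 (TMM, filterByExpr, robust quasi-likelihood F-test, 1 mean per group, the 36 libraries of a region together or all 72 between regions, Benjamini-Hochberg over all features, threshold 0.05). This tested 19647 genes in DH, 19597 in VH and 20255 in both, and 56523, 55754 and 60332 transcripts. The fit was tested on simulated data. CPM used TMM-scaled totals, and log2 CPM a prior count of 2. Shares were compared by exact permutation of libraries and relations by 100000 permutations, with SciPy 1.17.1 in Python 3.11.15. Annotation and sequences came from GENCODE vM21.

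The genes named are Gabra2 and its transcripts, members of 4 lists that passed or are needed for a count, the 5 closest and 5 most opposite genes, the 5 closest within groups, and Nnt and Lcn2 as checks. Some list and marker genes are not reported here and are in no list count, rank, sum or share. Members, lists and markers were chosen with earlier results of these data known. Alternatives were RLE size factors, DESeq2 1.42.0, no low-count filter, only the groups compared, code numbers as random effects (limma 3.58.1 voom), a block for the code between regions, shares per effective length, and fits without library 40A or the codes high in Lcn2. Counting intervals were not used, since replicate spread was at hand.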

Additional observations from a re-analysis of the deposited data

Results flagged for a closer look

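In 156 sets of 6 libraries, each a measure in a group, 10 had a single library far from the others of its group. That share is near the 5% or so that chance gives. The level and the share of a transcript counted as separate sets, so a library can appear under both. These libraries are named by code and region. For the Gabra2 gene, library 32C of the DH cue group labelled 6J stood at 259 CPM with the nearest at 239, library 33C of the DH shock and cue group labelled 6J at 273 CPM with the nearest at 238, and library 31A of the VH shock and cue group labelled 6J at 275 CPM with the nearest at 309. All of these are still far above every library labelled 6NJ of the same region.

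For transcripts, Gabra2-201 stood at 2.78 CPM in library 42C (VH home cage, 6NJ) and Gabra2-203 at 152 CPM in library 34A (DH cue, 6J, a code high in Lcn2). Gabra2-202 stood at 12.6 CPM in library 37C (VH shock and cue, 6NJ) with the nearest at 8.1, and at 1.35 CPM in library 32B (VH cue, 6J, also high in Lcn2) with the nearest at 0.67. Gabra2-205 stood at 0.573 CPM, a share of 0.439%, in library 39A (VH shock and cue, 6NJ), and took a share of 0.34% in library 40A (DH cue, 6NJ).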

How the results depend on the processing

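Gabra2 stayed lower under 6NJ and past the threshold in both regions and each condition under every alternative run: -1.13 to -1.11 in DH and -1.21 to -1.19 in VH for the mean of conditions. Over all its comparisons, 186 alternative values kept side and direction, 4 lost the call and 3 changed sign. The rise over the home cage under 6NJ missed the threshold for the cue in DH without library 40A (0.178), and with only the groups compared for the cue in DH (0.197), shock and cue in VH (0.203) and the cue in VH (0.196). The 6J difference between shock and cue and the cue in VH (-0.0016) changed sign with RLE size factors (0.00166), DESeq2 (0.00165) and only the groups compared (0.00752). With the replicate block (the code), DH minus VH was -0.287 over all groups, -0.248 under 6NJ, -0.326 under 6J and 0.0778 for their difference, and no call of the gene changed. Of 36 codes, 16 had a DH and VH library that deviated together (r over 0.1, range -0.189 to 0.341), and 17 matched best with their own code. Whether a code pairs its libraries was not settled by these values. The main fit between regions left the code out, and the block fit is the alternative that includes it.

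Leaving out the codes high in Lcn2 turned the sign of values that had not passed: for Gabra2-202, shock and cue (0.0422) and the cue (-0.376) against the home cage under 6J in VH, and DH minus VH over all groups (0.061) and under 6J (0.421); for the cue under 6J in DH, Gabra2-203 (0.0443) and Gabra2-204 (0.0411); and for DH minus VH under 6J, Gabra2-206 (-0.119). The share of Gabra2-202 was then higher by 6.79 (DH cue, adjusted p = 0.161, exact permutation), 5.79 (DH home cage, 0.0571), 7.05 (VH cue, 0.161) and 5.67 percentage points (VH home cage, 0.0571), with too few libraries left for a smaller p. Share differences that had not passed turned for Gabra2-204 (0.327 and 0.046 for the cue in DH and VH) and Gabra2-206 (0.0237 and -0.0248). Shares per effective length turned Gabra2-204 (-0.88 in the DH home cage, -2.25 after VH shock and cue) and Gabra2-206 (-0.044 after the VH cue). Gabra2-206 in VH missed the threshold without the Lcn2 codes (-1.17, adjusted p = 0.0617 by edgeR).

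With no low-count filter, 2 subunit genes passed in VH and 1 gene of GABA synthesis and transport in each region. DESeq2 called 1 scaffold gene in the VH home cage comparison, and RLE size factors and DESeq2 called 2 neighbours in DH, Commd8 besides Gabrb1. The causes of these shifts were not tested. Fitting only the groups compared is the same fit for the mean of conditions.

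Limits are few libraries per group, label and condition bound to code numbers, strain labels that go against known Nnt and Gabra2 levels, and low estimated counts for Gabra2-201, Gabra2-205, Gabra2-206 and, under 6J, Gabra2-202.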
